A study of Mus musculus with 2 samples.

Results

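The 9 genes described here are the members of the JAK-STAT signalling families *Stat2*, *Stat3*, *Stat4*, *Stat6*, *Jak1*, *Jak3*, *Tyk2*, *Socs1* and *Socs3*, out of 32285 genes listed in the counts. They were taken by symbol. Each of the 9 symbols had 1 row in the counts of both libraries. The levels were followed through marker-gated cell types of mouse bone marrow and between 2 droplet-based 3′ single-cell libraries, 1 from control mice (Ctrl) and 1 from Map4k4-cKO mice (cKO). The cKO mice carried *Map4k4* f/f alleles, encoding a serine/threonine kinase, and Mx1-Cre, and the methods write the control genotype as Mx1-Cre Map4k4-/- littermates. The floxed alleles were deleted with injections of poly I:C several weeks before the experiments, and the sources used here do not state whether the control mice received it. Mx1-Cre is driven by an interferon-inducible promoter and acts in blood cells at large as well as in other tissues. The mice were 13 to 14 weeks old. For each genotype, c-Kit+ marrow cells were mixed with red cell-lysed whole marrow at 2 parts to 3 parts, so the cell shares are those of the mixture. The number of animals in a library is not stated in the sources used here, so differences between the libraries are given with counting errors alone, without replicates and without p-values.

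Most cytokine receptors have no kinase of their own and carry Janus kinases (JAK1, JAK2, JAK3 and TYK2) on their cytoplasmic tails. When the ligand binds, the kinases phosphorylate the receptor and then STAT proteins, which pair, enter the nucleus and bind DNA. SOCS proteins are made in response to the same signals and shut the receptors down again. In marrow, G-CSF acts through STAT3 in neutrophil precursors, erythropoietin and thrombopoietin act mainly through JAK2 and STAT5, type I interferons act through JAK1, TYK2 and STAT2, and IL-12 and IL-4 act through STAT4 and STAT6.

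There were 71527701 UMIs (unique molecular identifiers, each 1 captured RNA molecule) in 10220 barcodes of Ctrl and 64393950 in 6872 barcodes of cKO. With the study's limits on detected genes and mitochondrial UMIs, 9965 and 6718 cells were kept, with medians of 4111 and 6243.5 UMIs per cell. Cells were gated by summed marker UMIs, and each gate carries the name of the marker list it is most like. A gate was used for levels when it held at least 50 cells, which 16 gates did in Ctrl and 7 did in cKO. The 7 gates in both were stem and multipotent progenitors (HSC/MPP, 500 Ctrl and 140 cKO cells), the neutrophil stages ProNeu, PreNeu, imNeu (immature) and mNeu (mature, 1977 and 1597 cells), monocytic cells (ProMon, 757 and 328) and megakaryocyte-erythroid progenitors (MEP, 542 and 109). The ProMon list held no cycling markers, so monocyte precursors and later monocytes were not told apart in that gate. None of the 9 genes was among the markers. The lymphoid and dendritic gates were almost empty in cKO, with 94 Ctrl and 13 cKO cells in the T gate, 295 and 13 in the B gate and 52 and 5 in the plasmacytoid dendritic cell (pDC) gate, so their levels are given for Ctrl. The libraries shared 3010 barcode sequences. Of the 2540 of these with a gate in both libraries, 16.1% had the same gate, beside 14.6% given by the gate sizes alone.

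*Map4k4* itself was at 72.6 CPM (UMIs of a gene over all UMIs of the summed cells, scaled to a fixed total) in all kept Ctrl cells and 64.3 CPM in the library labelled cKO, and at 121 and 115 CPM in the HSC/MPP gate. Reads from a 3′ protocol lie near the end of the transcript and need not lie in the part that was deleted, so these levels do not check the labels. All ratios below are log2(cKO CPM / Ctrl CPM) of summed UMIs, with exact 95% intervals that, like those of the levels, cover counting error only. Most genes had a lower CPM in cKO. The median log2 ratio over all genes with at least 30 UMIs was -0.52 in all kept cells, -0.12 in HSC/MPP, -0.29 in ProNeu, -0.34 in PreNeu, -0.43 in imNeu, -0.47 in mNeu, -0.20 in ProMon and -0.17 in MEP, and the ratios of the 9 genes are read against these medians. Scaling by the median of gene ratios (median-of-ratios) sets these medians to 0, so a ratio above the median of its gate is then positive.

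Among the STAT genes, in gates of at least 50 cells, *Stat3* and *Stat6* were at their highest in mature neutrophils, *Stat2* in pDC and *Stat4* in T cells. *Stat3* (chr11:100885098-100939540, minus strand, GRCm38) encodes the STAT protein of the IL-6, IL-10 and G-CSF receptors. Its level in Ctrl was 216 CPM in mNeu, 148 in pDC, 127 in imNeu, 108 in both PreNeu and HSC/MPP, 102 in ProMon and 67.8 in ProNeu. The intervals of mNeu (204 to 229) and pDC (97.7 to 216, 27 UMIs) overlapped. The erythroid gates stood at the low end, with 17.9 CPM in MEP and 14.6 in ProEry (proerythroblasts). In cKO the order ran from 201 CPM in mNeu to 11.3 in MEP, and the interval of mNeu did not overlap that of the next gate, ProMon at 121 CPM. The gene overlaps *Stat5a* on the opposite strand, and the counting of strand is not given in the sources used here.

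*Stat6* (chr10:127642986-127660957, plus strand), the transducer of IL-4 and IL-13, was higher at each later neutrophil stage of Ctrl. It stood at 37.7 CPM in ProNeu, 47.5 in PreNeu, 66.6 in imNeu and 139 in mNeu, with 108 CPM in B cells and 79.8 in ProMon. The neighbouring intervals of mNeu and B overlapped, as did those of all the other neighbours in the Ctrl order. In cKO it stood at 28.7 CPM in ProNeu, 34.2 in PreNeu and 102 in mNeu. The lowest level was 2.91 CPM in plasma cells of Ctrl.

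*Stat2* (chr10:128270559-128292849, plus strand) encodes the STAT found only in the type I and III interferon complexes, where it is bound by IRF9. It was at 187 CPM in pDC of Ctrl (34 UMIs, interval 129 to 261), the cell type known for interferon output. No other Ctrl gate of at least 50 cells overlapped that interval. The next were ProMon at 53.2 CPM, B at 48.9, macrophages at 41.5 and T at 41.3. The neutrophil stages stood between 15.4 CPM in PreNeu and 29.9 in mNeu. The 5 pDC of cKO held 3 *Stat2* UMIs.

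*Stat4* (chr1:51987148-52107189, plus strand) transduces IL-12 in T and NK cells. It was at 181 CPM in T cells of Ctrl (57 UMIs, interval 137 to 234), above the interval of every other Ctrl gate of at least 50 cells. The next levels were 36.9 CPM in HSC/MPP, 31.1 in mNeu and 30.4 in imNeu, whose intervals overlapped one another. The 26 NK cells of Ctrl, too few for the ranking, had 25 UMIs (267 CPM, interval 173 to 394), and the 13 T cells of cKO had 16 UMIs (208 CPM). ProMon at 9.31 CPM and MEP at 3.46 stood at the low end, and 0 UMIs in ProEry allow up to 14.6 CPM (3 counts).

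**Figure D1:**
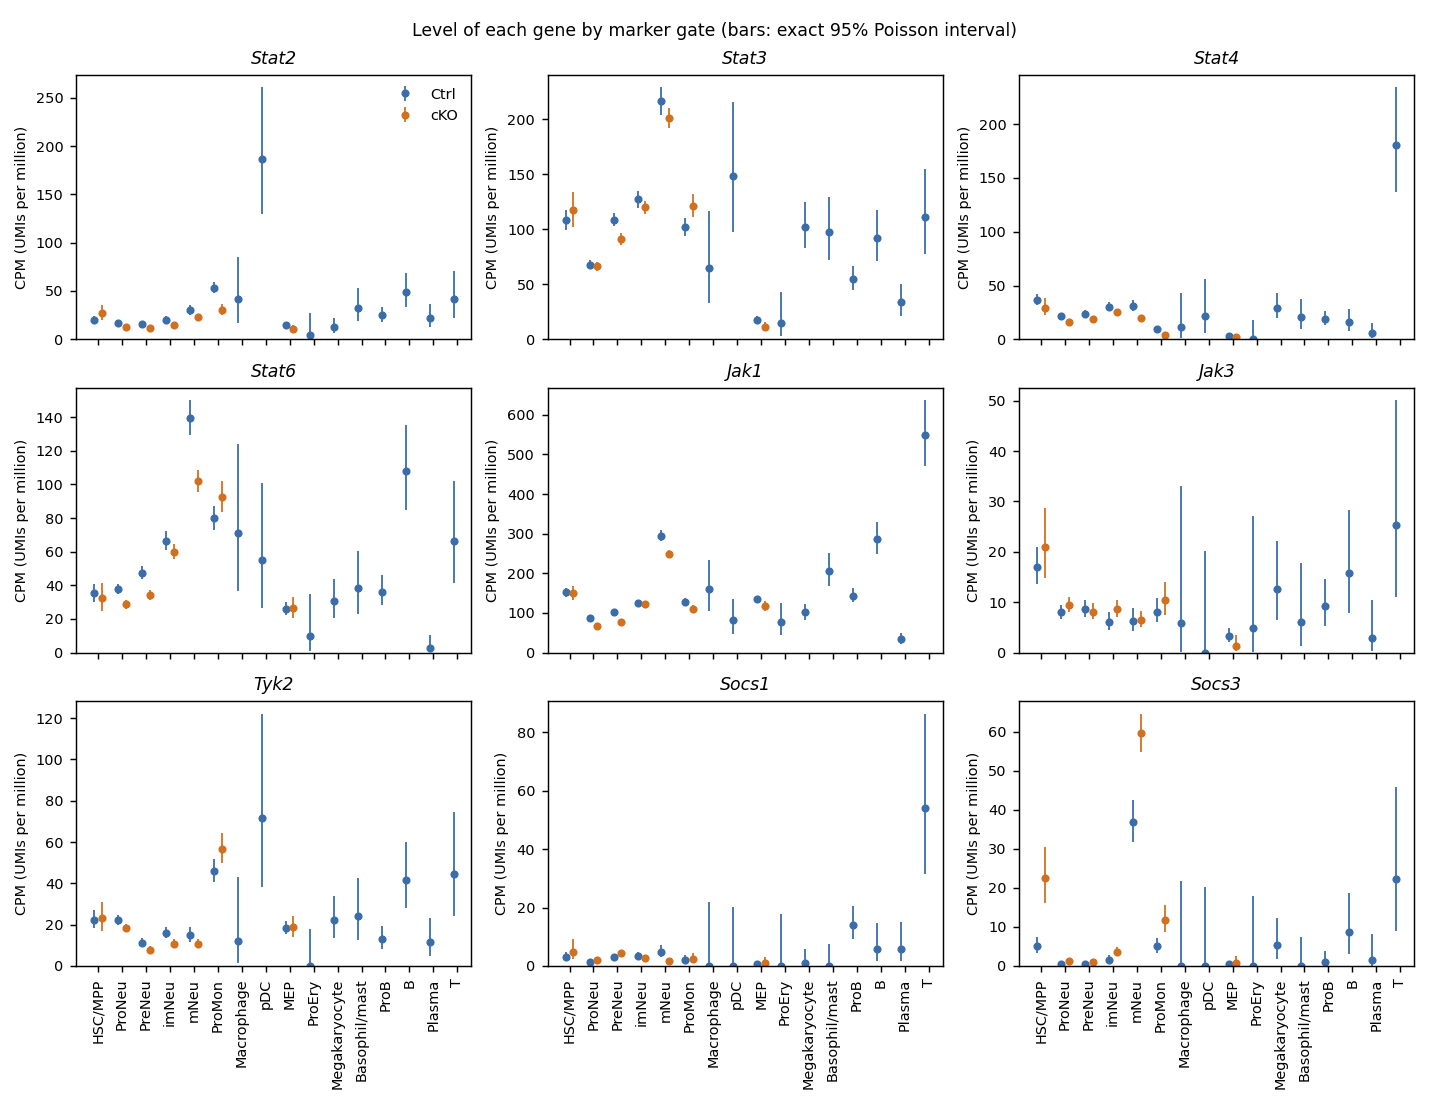
Level of each of the 9 genes (y axis, UMIs in CPM over the summed cells, linear from 0, scale differs by panel) in each marker gate with at least 50 cells (x axis), for Ctrl (blue, 16 gates) and cKO (orange, 7 gates). Points are sums over the cells of 1 library and bars are exact 95% Poisson intervals; Stat3, Stat6 and Socs3 were highest in mNeu, Stat4, Jak1 and Socs1 in T cells of Ctrl, and Stat2 in pDC of Ctrl at 187 CPM.

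Of the kinases, in gates of at least 50 cells, *Jak1* was highest in T cells and mature neutrophils and *Tyk2* in pDC and ProMon. *Jak3* was highest there in T cells and progenitors. The 26 NK cells of Ctrl, too few for this ranking, had *Jak1* at 672 CPM (63 UMIs, interval 517 to 860). They had *Tyk2* at 74.7 CPM (7 UMIs) and *Jak3* at 53.4 CPM (5 UMIs). *Jak1* (chr4:101152367-101265282, minus strand) serves the interferon, gp130 and common gamma chain receptors. It was at 549 CPM in T cells of Ctrl (173 UMIs, interval 470 to 637), above the interval of every other Ctrl gate of at least 50 cells. It followed at 295 in mNeu, 286 in B and 207 in basophils and mast cells. Along the neutrophil stages of Ctrl it stood at 86.8 CPM in ProNeu, 102 in PreNeu, 124 in imNeu and 295 in mNeu, and in cKO at 67.3, 78.4, 123 and 248. MEP was not at the low end, with *Jak1* at 135 CPM in Ctrl and 118 in cKO. Of the 322 Ctrl cells of that gate with a *Jak1* UMI, 159 had 3 or more. The gene overlaps *Raver2* on the other strand, so reads of these genes cannot be told apart without strand where they overlap. In the same way *Stat6* overlaps *Nab2* and *Tyk2* overlaps *1700084C06Rik*.

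*Tyk2* (chr9:21104068-21131243, minus strand), the partner of JAK1 at the interferon alpha receptor and of JAK2 at the IL-12 receptor, was at 71.4 CPM in pDC of Ctrl (13 UMIs, interval 38.0 to 122). It followed at 45.9 in ProMon, 44.4 in T and 41.7 in B, with overlapping intervals. ProMon led in cKO at 56.7 CPM, with no overlap with the next gate, HSC/MPP at 23.1 CPM. The neutrophil gates past ProNeu were low in both libraries, between 11.3 and 15.9 CPM in Ctrl and between 7.85 and 10.9 in cKO.

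*Jak3* (chr8:71676296-71690575, plus strand) works with the common gamma chain of the IL-2, IL-4, IL-7 and IL-15 receptors. T cells of Ctrl had 25.4 CPM from 8 UMIs (interval 10.96 to 50.04), HSC/MPP had 17.0 from 86 UMIs and B cells 15.8 from 11 UMIs. In cKO the HSC/MPP gate led at 20.9 CPM, apart from ProMon at 10.4, and MEP was lowest in both libraries among the 7 shared gates, at 3.33 and 1.36 CPM. No *Jak3* UMI was found in the pDC of Ctrl, which allows up to 16.5 CPM. *Insl3* lies within the gene on the same strand.

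The SOCS genes were sparse, with 223 *Socs1* and 319 *Socs3* UMIs in all kept cells of Ctrl and 184 and 787 in cKO. *Socs1* (chr16:10782240-10785536, minus strand) encodes an inhibitor of JAK1, JAK2 and TYK2 that is induced by interferons. It stood at 54.0 CPM in T cells of Ctrl (17 UMIs, interval 31.4 to 86.4) and at 14.0 in ProB (26 UMIs). In the other Ctrl gates of at least 50 cells it was at or below 5.83. Only the T gate stood apart from its neighbour in the order. *Socs3* (chr11:117966079-117970047, minus strand) encodes the inhibitor of G-CSF and gp130 receptor signals. It was found mainly in mature neutrophils, which held 59.6% of its UMIs in Ctrl and 74.5% in cKO. The level was 36.9 CPM in mNeu of Ctrl (190 UMIs, interval 31.9 to 42.6), beside 1.57 in imNeu, 0.50 in PreNeu and 0.52 in ProNeu. T cells of Ctrl were next to mNeu at 22.2 CPM (7 UMIs, interval 8.93 to 45.8), and these intervals overlapped. B cells followed at 8.63 CPM (6 UMIs), megakaryocytes at 5.28 (5 UMIs), HSC/MPP at 5.13 and ProMon at 4.99. In cKO it was 59.6 CPM in mNeu (586 UMIs), 22.6 in HSC/MPP (42 UMIs), 11.8 in ProMon (50 UMIs), 3.54 in imNeu (45 UMIs) and 1.37 in ProNeu (22 UMIs). Each of these was apart from the next one listed, and the interval of ProNeu overlapped that of PreNeu at 0.94 CPM. Counts of 0 in pDC, macrophages, ProEry and basophils and mast cells of Ctrl allow *Socs3* levels of up to 16.5, 17.8, 14.6 and 6.09 CPM.

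The regions before the start sites of *Socs3*, *Socs1* and *Stat2* are shown because *Socs3* is a textbook target of STAT3, and *Socs1* and *Stat2* are textbook interferon targets. RefSeq windows of GRCm38.p6, 250 bases before to 50 after each start, were found for all 9 genes in 10 windows (*Stat4* had a pair). A core of the STAT dimer site, TTCNNNGAA, searched on both strands, was in 8.30% of all 32851 windows and in 1 of the 10. That window was the one of *Socs3*, with the match at bases -154 to -146 from the RefSeq start (chr11:117969502-117969530, minus strand, motif in capitals). The stretch lies within the span of *Socs3* given above, which comes from another annotation that places the start further upstream. A core of the interferon response site, GAAANNGAA, which can share bases with the former, was in 8.56% of all windows and in 4 of the 10. In *Socs1* a pair of overlapping matches lay at -83 to -75 and -77 to -69 (chr16:10785537-10785736, minus strand), and in *Stat2* the reverse strand matched, as TTCNNTTTC, at -221 to -213 (chr10:128270248-128270447, plus strand). *Jak3* at -143 to -135 and the downstream window of *Stat4* at -97 to -89 held the others.
Socs3: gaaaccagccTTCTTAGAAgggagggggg
Socs1: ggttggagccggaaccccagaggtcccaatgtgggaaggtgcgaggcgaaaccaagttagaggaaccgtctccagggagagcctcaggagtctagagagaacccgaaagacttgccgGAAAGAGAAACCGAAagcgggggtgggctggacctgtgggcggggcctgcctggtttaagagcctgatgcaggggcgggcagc
Stat2: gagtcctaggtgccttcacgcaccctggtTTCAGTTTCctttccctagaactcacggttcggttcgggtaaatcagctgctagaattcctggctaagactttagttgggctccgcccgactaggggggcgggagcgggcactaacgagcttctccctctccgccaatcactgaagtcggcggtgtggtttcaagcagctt
The matches describe letters in these windows and say nothing of binding.

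Within the mNeu gate, *Socs3* was uneven between cells with more *Il1b* and cells with more *Mmp8* UMIs, a split made after the values were seen. *Il1b* encodes interleukin-1 beta and *Mmp8* encodes neutrophil collagenase, a granule protein. The 253 Ctrl cells with more *Il1b* had 184 CPM of *Socs3* (80 UMIs) and the 1555 with more *Mmp8* had 21.1 (94 UMIs), an 8.71-fold difference (log2 3.12, interval 2.67 to 3.57). The 149 and 1361 such cells of cKO had 334 CPM (196 UMIs) and 42.1 CPM (383 UMIs), which is 7.94-fold (log2 2.99, interval 2.73 to 3.24). For *Stat3* the same ratio was log2 0.51 in Ctrl and 0.42 in cKO, for *Jak1* 0.26 and 0.46, and for *Stat6* 0.52 and 1.04. The cells with more *Il1b* had a median of 1678 UMIs in Ctrl and 4085 in cKO, beside 2577 and 6461 in those with more *Mmp8*.

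**Figure D2:**
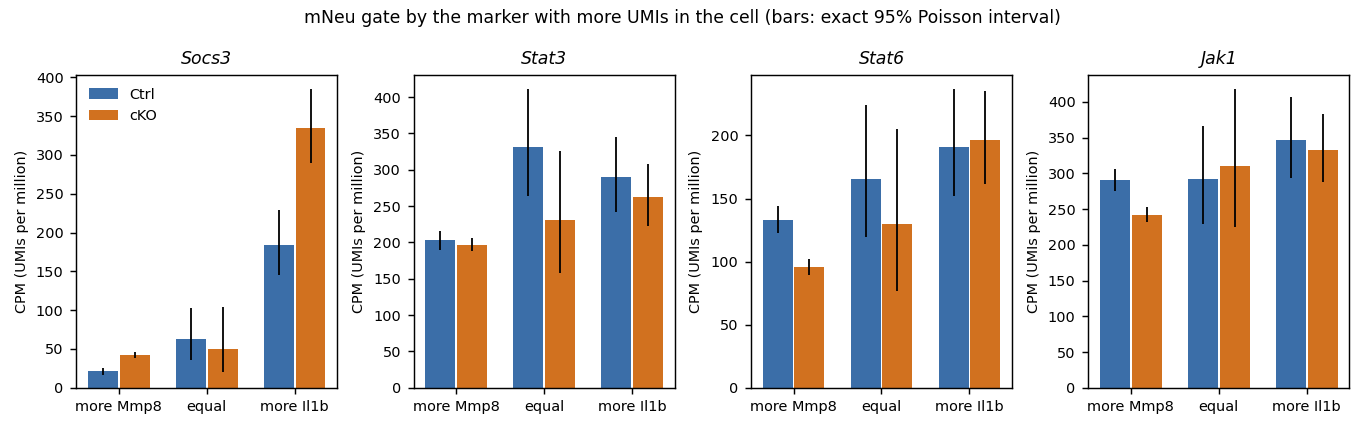
Levels of Socs3, Stat3, Stat6 and Jak1 (y axes, CPM, from 0) in the mNeu gate, in cells with more Mmp8 UMIs, equal UMIs or more Il1b UMIs (x axis), for Ctrl (blue) and cKO (orange). Bars are sums over cells of 1 library with exact 95% Poisson intervals; Socs3 stood at 184 and 334 CPM in the Il1b-richer cells and at 21.1 and 42.1 in the Mmp8-richer cells.

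Between the libraries, *Socs3* was the member with the largest difference over all kept cells, and the others lay within 2-fold. *Socs3* was at 4.48 CPM in Ctrl and 12.3 in cKO (log2 1.45, interval 1.26 to 1.65), and at 0.91 with the mean of cell proportions, which is under 2-fold. On summed UMIs 1 of the 9 genes was at least 2-fold higher, beside 1.31% of 13784 genes, and 0 of the 9 were at least 2-fold lower, beside 19.4%. *Stat3* stood at 94.3 and 106 CPM (log2 0.17, interval 0.12 to 0.22), with -0.07 when the 7 gates of cKO were weighted by their UMI shares in Ctrl. *Stat2* stood at 23.3 and 16.3 (-0.52), which is the median of all genes. *Stat4* at 22.5 and 18.3 (-0.30), *Tyk2* at 21.1 and 16.4 (-0.36) and *Jak1* at 132 and 118 (-0.16) were lower in CPM and higher under median-of-ratios scaling, at 0.22, 0.15 and 0.36. *Stat6* (53.4 and 52.0 CPM, -0.04), *Jak3* (8.403 and 8.79, 0.07) and *Socs1* (3.13 and 2.86, -0.13) had intervals that included 0. In all, 8 of the 9 ratios were above the median of all genes, and the median of the 9 was -0.13.

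By gate, 61 pairs of a member and a gate had at least 30 UMIs and 8 of them differed by at least 2-fold, beside 8.96% of 72329 such pairs over all genes. Of the 8 pairs, 4 were of *Socs3*. *Socs3* was higher in cKO in 5 of the 5 gates with enough UMIs. In HSC/MPP it was at 5.13 CPM from 26 UMIs in Ctrl and 22.6 CPM from 42 UMIs in cKO (log2 2.14, interval 1.40 to 2.90), in a gate where 0.908% of genes were at least 2-fold higher. The ratio was 1.39 in ProNeu on 9 and 22 UMIs (0.527% of genes), 1.17 in imNeu on 13 and 45 UMIs (0.715%) and 1.24 in ProMon on 30 and 50 UMIs (0.709%). These 3 went under 2-fold in some alternatives. ProNeu was at 0.77 with the most abundant marker of each gate left out. In imNeu the ratio was 0.95 with cells of at least 1000 UMIs. Under a stricter gate it was 0.84 in imNeu, on fewer than the 30 UMIs asked for. ProMon was at 0.63 with the mean of cell proportions and 0.90 without shared barcodes. In mNeu, where most of its UMIs lie, it was at 36.9 and 59.6 CPM (0.69, interval 0.45 to 0.93), with 1.06% of all genes at least 2-fold higher there. Within the mNeu gate the ratio was 0.86 (interval 0.48 to 1.26) in cells with more *Il1b* and 0.996 (0.67 to 1.34) in those with more *Mmp8*. Weighting the gates of cKO by their shares in Ctrl gave 1.01 in place of 1.45 over all cells.

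Levels of mature neutrophil markers, of the G-CSF receptor and of early response genes were set beside those of *Socs3*, and their part in the difference was not tested. The 11 mNeu markers, all of them detected, summed in the HSC/MPP gate to 1.16% of their mNeu level in Ctrl and 0.91% in cKO, in ProMon to 3.18% and 3.72%, and in MEP to 0.91% and 0.75%. *Socs3* in the HSC/MPP gate of cKO was at 22.6 CPM against 59.6 in mNeu, and in MEP at 0.68. *Csf3r*, the G-CSF receptor, was lower in CPM in cKO in each of the 7 gates, at 1692 and 1206 CPM in mNeu, 87.7 and 75.2 in HSC/MPP and 36.7 and 14.0 in MEP, while over all kept cells it was higher, at 235 and 285 CPM (0.28). The median of all genes was also below 0 in each of the 7 gates, at -0.47 in mNeu, -0.12 in HSC/MPP and -0.17 in MEP. A list of immediate early and stress genes was chosen after values were seen. It summed to a log2 ratio of -0.57 in mNeu, -0.13 in HSC/MPP and -0.62 in ProMon. The medians of all genes in these gates were -0.47, -0.12 and -0.20, and the median gene of the list stood at -0.51, 0.01 and -0.35. Of the list's genes with enough UMIs, 1 of 11, 6 of 11 and 4 of 12 were higher in cKO. Without the barcode sequences found in both libraries the *Socs3* ratio was 1.26 over all cells, 2.10 in HSC/MPP, 0.53 in mNeu and 0.90 in ProMon.

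*Socs1* in mNeu was at 4.86 CPM in Ctrl on 25 UMIs and 1.53 in cKO on 15 UMIs (log2 -1.67, interval -2.70 to -0.69), where 17.4% of genes were at least 2-fold lower. Its interval lay below the median of all genes in that gate. In PreNeu (35 and 59 UMIs, 0.55) and ProNeu (24 and 32 UMIs, 0.51) the intervals included 0. The T markers, 8 of 9 detected in the mNeu gate of Ctrl and 4 of 9 in cKO, summed there to 0.76% and 0.20% of their T gate level in the same library, and their part in the *Socs1* difference was not tested.

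*Stat4* was lower in ProMon of cKO, at 9.31 CPM on 56 UMIs against 3.78 on 16 UMIs (log2 -1.30, interval -2.20 to -0.48), where 5.02% of genes were at least 2-fold lower. Without the shared barcode sequences that ratio was -0.85. In MEP the ratios of *Stat4* (27 and 5 UMIs, -1.02) and *Jak3* (26 and 4 UMIs, -1.29) passed 2-fold, as did 6.48% of genes downwards, with intervals that included 0. *Stat4* in mNeu stood at 31.1 and 20.05 CPM (-0.63, interval -0.94 to -0.32).

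*Stat2*, *Stat3*, *Stat6*, *Jak1* and *Tyk2* differed by less than 2-fold in every gate with enough UMIs on summed counts, and the largest gap from the median of all genes was that of *Stat2* in ProMon. There it was at 53.2 CPM in Ctrl and 30.5 in cKO (-0.80, interval -1.11 to -0.50), while *Tyk2* was at 45.9 and 56.7 (0.31, interval 0.05 to 0.56), *Stat3* at 102 and 121 (0.25, 0.07 to 0.42) and *Stat6* at 79.8 and 92.7 (0.22, 0.02 to 0.41). *Stat2* passed 2-fold in ProMon without the shared barcode sequences (-1.07) and with the most abundant marker of each gate left out (-1.02), and *Stat2* and *Stat3* did in MEP with the mean of cell proportions (-1.02 and -1.08). The intervals of *Tyk2*, *Stat3* and *Stat6* lay above 0 in ProMon and that of *Stat2* below it. In mNeu, *Stat6* at 139 and 102 CPM (-0.45), *Jak1* at 295 and 248 (-0.25), *Stat2* at 29.9 and 23.3 (-0.36) and *Tyk2* at 14.97 and 10.8 (-0.47) were lower in CPM, and under median-of-ratios scaling they turned to 0.02, 0.22, 0.11 and 0.00098. *Stat3* there was at 216 and 201 CPM (-0.10, interval -0.21 to 0.00), and at 0.37 under that scaling. *Jak3* in imNeu stood at 6.15 and 8.66 CPM (51 and 110 UMIs, 0.49, interval 0.0008 to 1.001).

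**Figure D3:**
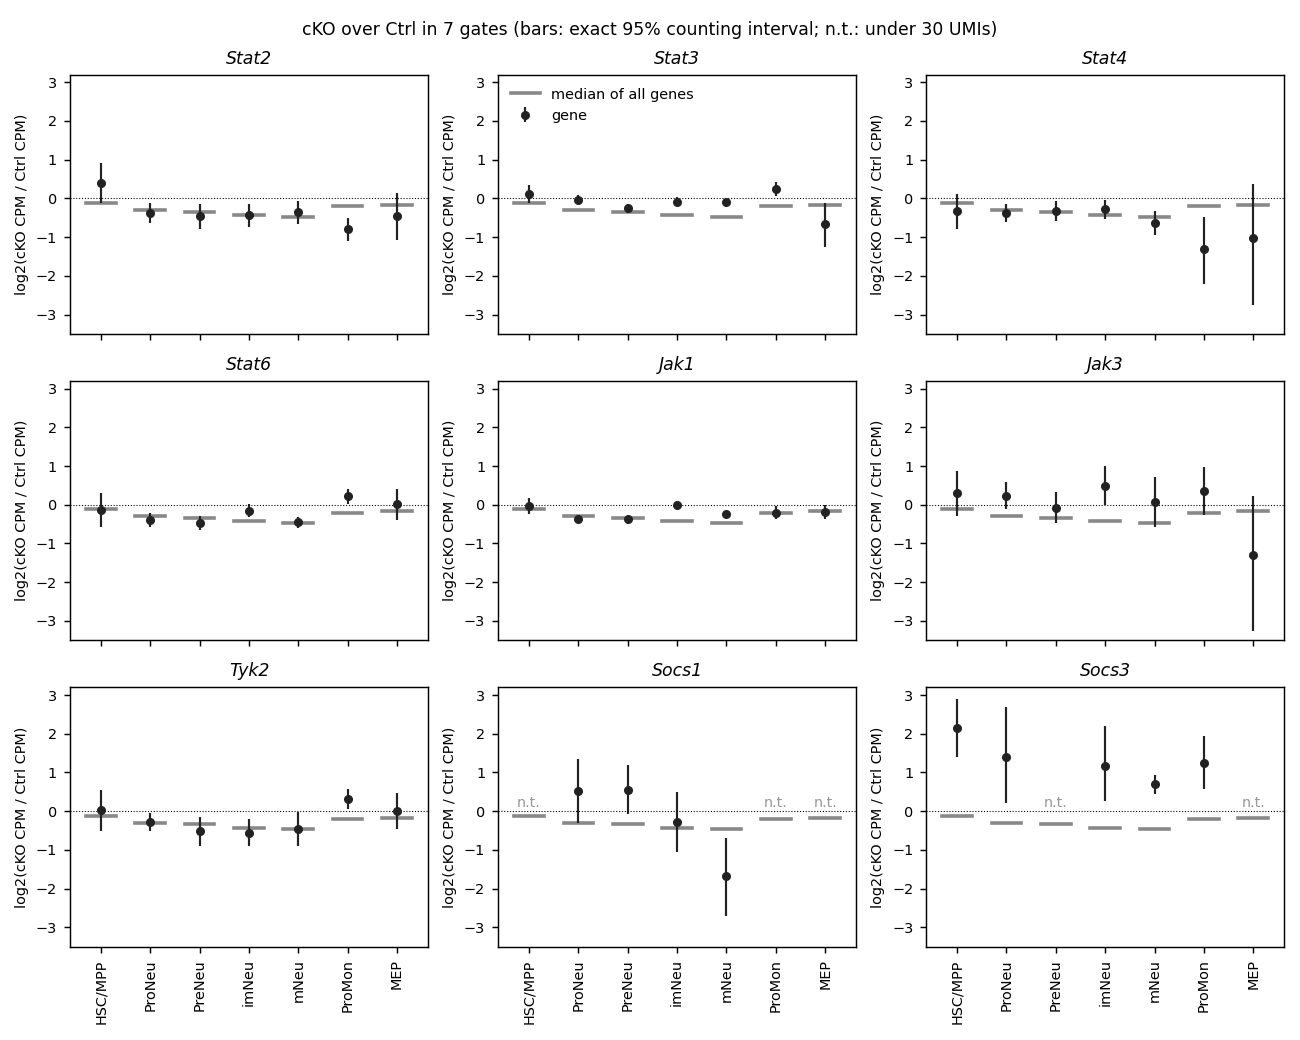
log2 ratio of cKO to Ctrl CPM (y axis) of each of the 9 genes in the 7 gates (x axis) with at least 50 cells in both libraries; points are ratios of sums, bars exact 95% counting intervals, grey bars the median of all genes in the gate and n.t. marks fewer than 30 UMIs. Socs3 lies above the grey bars in its 5 gates, Socs1 below in mNeu and Stat4 below in ProMon; under median-of-ratios scaling the grey bars move to 0, and points between them and 0 change sign.

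The share of cells with a UMI depends on depth, which as a ratio differed between the libraries most in mNeu among the 7 gates, at medians of 2264 UMIs per cell in Ctrl and 5832 in cKO. *Socs3* was seen in 7.5% of mNeu cells of Ctrl and 22.4% of cKO, and after thinning each cell to 1000 UMIs in 4.15% and 6.62%, with 175 and 113 shallower cells left out. In HSC/MPP it was seen in 21 of 500 cells (4.2%) and 29 of 140 (20.7%), at median depths of 8712 and 11280.5 UMIs, and after thinning in 0.50% and 3.21%. In MEP, the gate with the lowest *Socs3* level in cKO, the shares were, on 2 cells in each library, 0.37% and 1.83% at median depths of 9324.5 and 21087 UMIs, and 0.15% and 0.10% after thinning. In ProMon the thinned shares were 0.93% and 1.49%.

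*Stat4* UMIs were in 39.4% of the 94 T cells of Ctrl and, after thinning, in 16.5%, beside 0.39% in MEP of Ctrl. Among gates of at least 50 cells, the highest thinned share of any member was that of *Jak1* in T cells of Ctrl, at 40.6%, followed by B cells at 26.9% and mNeu at 25.6%. In mNeu, thinned shares of *Stat3* were 20.2% in Ctrl and 19.3% in cKO, of *Stat6* 13.3% and 9.87% and of *Jak1* 25.6% and 22.7%, where the shares at full depth had been higher in cKO for all 3. UMIs per 100 cells likewise followed depth, with *Stat3* at 56.3 in mNeu of Ctrl and 123.8 in cKO.

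**Figure D4:**
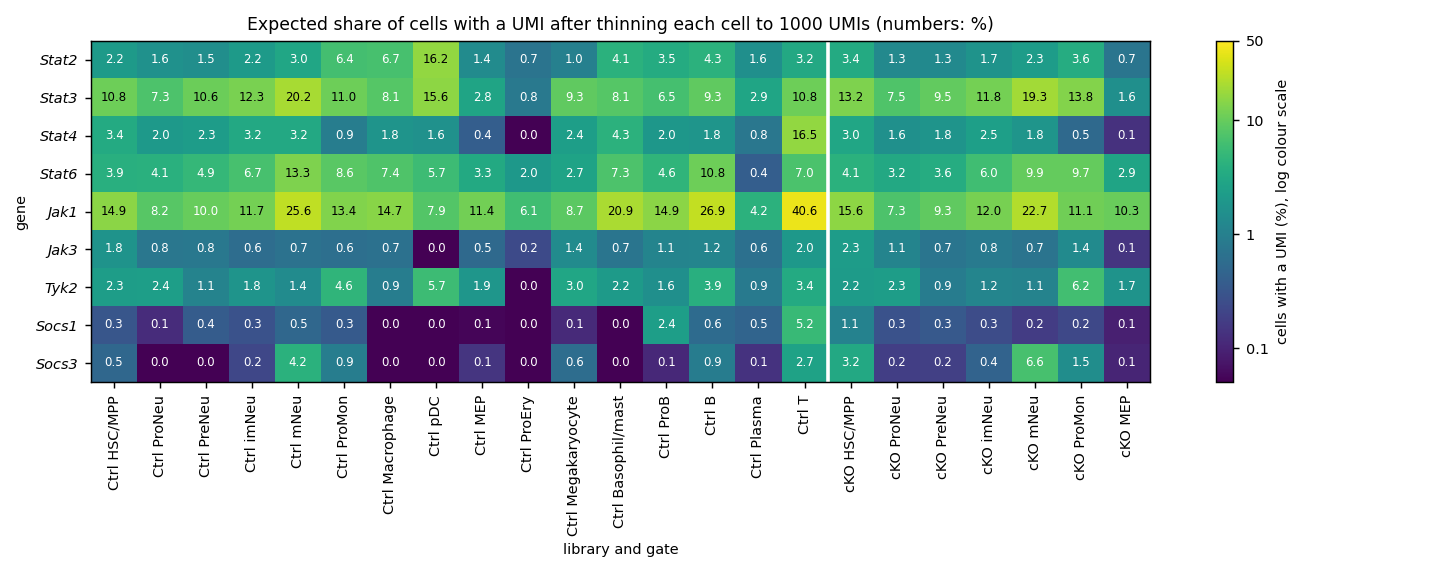
Expected share of cells with a UMI (numbers in %, log colour scale) of each of the 9 genes (rows) after thinning each cell to 1000 UMIs, by library and gate (columns; white line between Ctrl and cKO). Gates have at least 50 cells; among these, Jak1 in T cells of Ctrl had the highest share at 40.6%, and Socs3 was at 4.2% and 6.6% in mNeu and at 0.5% and 3.2% in HSC/MPP.

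The rest of the pathway was taken as 54 genes in 11 roles, of which 52 had enough UMIs over all kept cells. At least 2-fold higher in cKO was 1 of the 52 (*Il13ra1*, a chain of the IL-13 receptor, 7.04 and 16.03 CPM, named after its value was seen), and 9 were at least 2-fold lower, beside 1.31% and 19.4% of all genes. Their median was -0.46, beside -0.52 over all genes. Among the STAT genes and partners, *Stat5a* stood at 26.3 and 15.96 CPM (-0.72), *Stat5b* at 52.0 and 38.4 (-0.44) and *Irf9*, the DNA-binding partner of STAT2, at 42.2 and 28.1 (-0.59). *Jak2*, the kinase of the erythropoietin and thrombopoietin receptors, stood at 42.3 and 25.5 (-0.73).

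The receptors of the pathway split. *Il4ra*, the IL-4 receptor chain that recruits STAT6, was at 20.8 and 35.5 CPM (0.77) over all cells and at 68.4 and 110 (0.68) in mNeu. *Csf2rb*, the common beta chain of the GM-CSF, IL-3 and IL-5 receptors, was at 93.9 and 155 (0.73), and at 250.8 and 335 (0.42) in mNeu. *Csf2ra*, the alpha chain of the GM-CSF receptor, went the other way, at 153 and 142 CPM (-0.11) over all cells. In mNeu it was at 412 and 243 CPM (-0.76, interval -0.85 to -0.68), below the median of all genes there (-0.47). *Il2rg*, the common gamma chain that carries JAK3, was at 19.96 and 11.7 (-0.77), and in mNeu at 7.78 and 1.93 on 40 and 19 UMIs (-2.01), beside the fewer T marker UMIs there. *Il6st*, the gp130 chain upstream of STAT3, was at 17.0 and 8.95 (-0.92) over all cells and 105 and 81.6 (-0.37) in ProMon, which held most of it. *Il12rb2*, the IL-12 receptor chain upstream of STAT4, had 80 and 19 UMIs, with few T and NK cells in cKO. *Ifnar1* and *Ifnar2*, the interferon alpha receptor chains that carry TYK2 and JAK1, stood at -0.36 and -0.21, both above the median of all genes and both below 0 in CPM.

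Of the other inhibitors and targets, *Socs2*, induced by STAT5, was at 4.64 CPM in Ctrl and 0.90 in cKO (331 and 58 UMIs, -2.36) over all kept cells. It was not among the genes at least 2-fold lower in any of the 9 gates with ratios, where a gene needed at least 30 UMIs. The part of cell composition in this difference was not tested. *Cish*, the other STAT5-induced inhibitor, was at 3.75 and 4.50 CPM (0.26) over all cells and at 1.28 and 10.6 CPM in MEP (10 and 31 UMIs, 3.04). The phosphatases *Ptpn6* (209 and 226 CPM, 0.11) and *Ptprc* (339 and 347, 0.03) were near equal in CPM. The 4 genes in the role of PIAS inhibitors had a median of -0.49 over all cells. All 4 intervals lay below 0, and 3 of the 4 ratios were above the median of all genes. The targets *Pim1*, a survival kinase induced by STAT3 and STAT5, and *Irf1*, an interferon response factor, stood at 0.02 and -0.08. In mNeu, *Irf1* was at 116 and 74.0 CPM (-0.64). Of the 7 genes in the role of targets, 1 had an interval above 0 there and 5 below it, and 4 were above the median of all genes. The 1 above 0 was *Bcl3*, at 34.8 and 55.1 CPM (0.66), named after its value was seen. Over all cells *Bcl3* was at 9.99 and 19.7 CPM (0.98), and 2 of the 7 targets had intervals above 0 and 3 below it. A list of interferon-stimulated genes, chosen after values were seen, summed to -0.63 over all cells and -0.92 in mNeu, beside *Stat2* at -0.52 and -0.36.

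**Figure D5:**
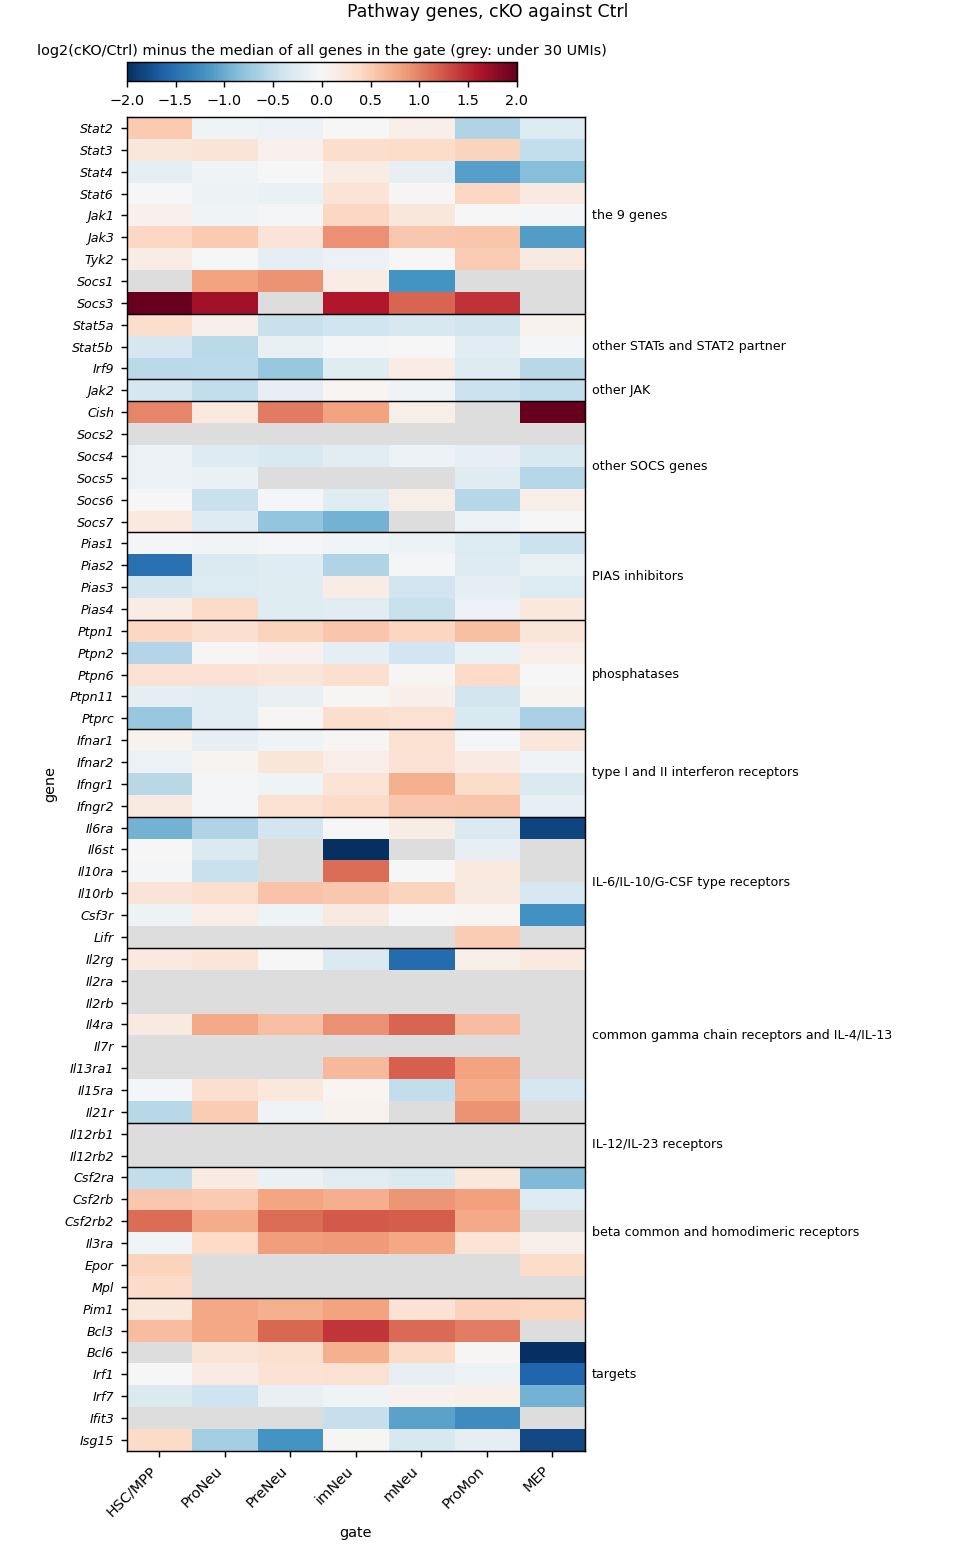
log2 ratio of cKO to Ctrl minus the median of all genes in the gate (colour, cut at 2 in either direction) of the 9 genes and the 52 other pathway genes with enough UMIs (rows, by role) in 7 gates (columns); grey marks fewer than 30 UMIs. Socs3 is dark red in each of its 5 gates, and Il4ra and Csf2rb are red across the neutrophil gates; in CPM they were at 0.77 and 0.73 over all cells.

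Over the 7 gates of both libraries, 14 points that share library and depth, the members followed different genes among 12087 compared on log2(CPM + 10). Pearson's r describes the likeness and was not tested. *Stat3* was closest to *Sash3* (0.991), *Tsc22d3* (0.980) and *Zfp36* (0.972), *Stat6* to *Rab7* (0.980), *Fosl2* and *Borcs6*, and *Jak1* to *Samd4b* (0.969), *Por* and *Ip6k1*. *Stat2* was closest to *Foxk1* (0.960), *Slc38a6* and *Nfkb2*, *Stat4* to *Stap1* (0.953), *Tes* and *Acap1*, *Tyk2* to *Crip1* (0.973), *Fbxo4* and *Scpep1*, and *Jak3* to *Acot1* (0.909), *Appl2* and *Tmem198b*. *Socs1*, the sparsest member, had the lowest values, with *Frmd8* (0.799), *Camkk1* and *Tmub1*. *Socs3* was closest to *5830416I19Rik* (0.948), *Rtp4* (0.948) and *Slc2a1* (0.935). None of the 9 was among the 3 closest genes of another.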

How the data were processed

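Whole marrow mixed with c-Kit+ cells was profiled in 1 Ctrl and 1 cKO library. The values deposited by the authors are UMI counts of each gene in each cell barcode, from Cell Ranger 5.0.0 on mm10 per the labels, and are not normalized. Following the study, cells had to have 200 to 9000 genes and a mitochondrial share of UMIs up to 30%. Each cell was gated by the UMIs of its marker lists per 10000 UMIs, with at least 3 UMIs from at least 2 markers. The 274 Ctrl and 210 cKO cells that passed gates of several unrelated types, which may be doublets, were left out, as were 841 and 508 cells that passed none. The gate limits were set after the marker distributions were seen, and 1 listed marker was not in the counts. The study's doublet caller was not run and its own cell annotation was not used here, so the cells differ from those it kept.

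UMIs were summed per gate and library and divided by all UMIs of those cells (CPM). With 1 library per group no test across genes was possible, so sums carry exact Poisson intervals, shares exact Clopper-Pearson intervals and ratios intervals from the exact binomial distribution, all at 95%. A count of 0 was bounded at 3 counts. Ratios were formed for genes with at least 30 UMIs over both libraries, in gates with at least 20 cells in each, which 9 gates had. The scripts were tested on simulated data. Named were *Map4k4*, the 9 genes and, for each member, the 3 genes of most similar pattern with at least 100 UMIs. Pathway genes to be named were the 2 with the most UMIs in each role and a fixed set of further genes. Not all of these are named, and the PIAS inhibitors are given as a role. A further item is not reported here. The members and lists were chosen with earlier results of these data known. Genes were placed by GENCODE vM21 identifiers (32158 of 32285 matched). Python 3.11.15, numpy 2.4.6, scipy 1.17.1, pandas 2.3.3 and matplotlib 3.10.9 were used. Alternatives covered cell filters, cell weights, the denominator, scaling, the gates, thinning and, chosen after seeing the data, shared barcodes and cell composition.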

Additional observations from a re-analysis of the deposited data

Results flagged for a closer look

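For 3 genes the libraries differed in opposite directions between gates, with intervals of the ratio that left out 0 on either side. *Stat3* had a log2 ratio of 0.25 in ProMon and -0.67 in MEP, a gap of 0.92. *Tyk2* had 0.31 in ProMon and -0.55 in imNeu, a gap of 0.86. *Stat6* had 0.22 in ProMon and -0.48 in PreNeu, a gap of 0.69. Under median-of-ratios scaling the lower ratio of each pair moved to -0.50, -0.12 and -0.14, with intervals that then included 0. With 1 library per group these differences between gates were not tested.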

How the results depend on the processing

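No paired analysis was possible because each group had 1 library. Of 704 recomputed values of 70 ratios, 638 stayed within the counting interval of the reported ratio, 53 moved out of it and 13 reversed. A reversal was a change of sign of a ratio whose interval left out 0. Where the interval included 0, a change of sign was not counted as one. The gate with the highest level was kept for 9 of 9 members under the alternatives run. Median-of-ratios scaling, which sets the median gene to 0, moved the median ratio of the 9 genes from -0.13 to 0.39 over all cells and from -0.20 to 0.14 over gates. It reversed *Stat4* (0.22), *Jak1* (0.36) and *Tyk2* (0.15) over all cells, *Tyk2* in ProNeu (0.0116), *Stat3* (0.0874) and *Stat4* (0.0141) in PreNeu, *Stat4* in imNeu (0.14), and *Stat2* (0.11), *Stat6* (0.0212), *Jak1* (0.22) and *Tyk2* (0.00098) in mNeu. *Tyk2* in ProNeu turned to 0.0035 with the mean of cell proportions, and *Stat3* over all cells to -0.0656 with the cell composition of Ctrl. The causes of the last 2 reversals were not tested. Under the cell composition of Ctrl, 2 of the 9 ratios over all cells stayed within their interval, 6 moved out of it and 1 reversed. The weighted ratios cover the 7 shared gates alone, so leaving out the other cells is part of the change. *Socs1* was at -0.13 over all kept cells, and over the 7 gates at 0.18 both with their own shares and with those of Ctrl. *Tyk2* went from -0.36 to -0.12, *Stat6* from -0.04 to -0.23 and *Stat4* from -0.30 to -0.41. Past 2-fold were 8 pairs of a member and a gate, 4 of them under a stricter gate. Without shared barcodes there were 3, of which 2 were among the 8 and *Stat2* in ProMon was not. In each case 4 of the 8 had too few UMIs to be counted. The gate of the highest thinned share in Ctrl was that of the highest CPM for 9 of 9 members, and with shares at full depth for 3 of 9. For the other pathway genes, 23 pairs past 2-fold became 35 with the mean of cell proportions, and the cause was not tested. In each of the 9 gates, 8 to 43 of the 54 genes had enough UMIs. Over all genes, 8.96% of pairs passed 2-fold on summed UMIs. That share was not computed for the mean of cell proportions, so neither count is read as a result about the pathway. Among similar genes, 16 of the 27 most similar genes were kept with log2(CPM + 1). The number of UMIs limits *Socs3*, *Socs1*, *Jak3* and *Stat4* in MEP, with 2 to 5 UMIs in cKO.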
